A study of Mus musculus with 74 samples.

Results

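Peaks of KRAB zinc finger proteins (KRAB-ZFPs) that fell inside annotated pseudogenes numbered 258 of 53011 peaks. A peak counted where the midpoint of its 200 bp window lay in the body of a gene whose type in gencode vM1, on the mouse build mm9, ends in pseudogene. Pseudogenes with symbols starting Olfr or Vmn, the names of olfactory and vomeronasal receptors, were left out by rule, while those with other symbols were kept, also where a vomeronasal receptor is the closest gene. The peaks lay in 138 of 4970 such pseudogenes and came from 42 of 67 KRAB-ZFPs. Their share of all peaks was 0.487%, with a 95% Wilson interval of 0.431% to 0.550% that covers counting error only, where the bodies held 0.397% of the genome. Only 67 of the peaks lay in an annotated exon of the pseudogene, 0.126% of all peaks, and exons held 0.136% of the genome.

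The peaks came from ChIP-seq of 67 epitope-tagged KRAB-ZFPs with 1 sample each, out of 74 samples that include 6 controls, so no value for a single KRAB-ZFP has a replicate error. In F9 EC cells, a mouse embryonal carcinoma line, 18 proteins carried a 3XFLAG tag, 30 a 3XHA tag, and 10 a 3XHA tag with peaks called against a control ChIP of Gm14296. In ES cells of the B6 strain 9 proteins carried a 3XHA tag and were called against input. All proteins were expressed stably from Sleeping Beauty or lentiviral vectors, and puromycin-resistant clones were pooled, so the peaks describe overexpressed proteins in mixed clones. Cut-offs in the labels were a p of 1e-10 or 1e-05 with an enrichment of 20 or 10 in F9 EC cells, and 1e-05 with no enrichment cut-off in ES cells, so peak numbers are not comparable between all proteins. The depth of the libraries is unknown here; tags inside peaks ran from 1681 to 540220 per KRAB-ZFP. One name in the peak table, with 244 peaks and 0 in pseudogenes (Wilson upper limit 1.55%), matched no label and was not used.

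KRAB-ZFPs are DNA-binding repressors that read DNA with an array of zinc fingers and, through the KRAB domain, recruit KAP1 and heterochromatin proteins. They are best known for binding retrotransposons. A processed pseudogene is a retrotransposed copy of an mRNA and lacks the introns of its parent gene, while an unprocessed pseudogene arose by duplication of a gene and can keep introns, which in turn can hold retrotransposons. Reads with several equally good positions were placed pseudo-randomly at 1 of them, so identical copies cannot be told apart.

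The windows that recurred across pseudogenes are shown here as 70 bases each, read from mm9 5′ to 3′. Within a family of pseudogenes on chromosome X, 6 of the 7 Zfp808 peaks held the same 10-letter word GGTGCACCAA, printed in capitals, as did the one in Alms1-ps1 on chromosome 6. The Gm13157 peaks held a shared stretch of 20 letters, also in capitals, of which the window in Gm14625 keeps the first 12.
Zfp808 peak in Gm7916, chrX:51491736-51491805, plus strand: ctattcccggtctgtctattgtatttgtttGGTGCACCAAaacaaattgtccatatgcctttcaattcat
Zfp808 peak in Gm6591, chrX:51622576-51622645, plus strand: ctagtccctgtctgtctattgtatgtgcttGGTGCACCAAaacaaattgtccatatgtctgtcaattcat
Zfp808 peak in Gm14625, chrX:52606929-52606998, plus strand: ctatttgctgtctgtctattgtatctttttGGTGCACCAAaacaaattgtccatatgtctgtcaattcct
Zfp808 peak in Alms1-ps1, chr6:85685189-85685258, plus strand: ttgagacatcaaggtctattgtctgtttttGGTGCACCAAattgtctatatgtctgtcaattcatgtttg
Gm13157 peak in Gm7916, chrX:51504740-51504809, plus strand: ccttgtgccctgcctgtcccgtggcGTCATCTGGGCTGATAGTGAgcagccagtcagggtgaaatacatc
Gm13157 peak in Gm6591, chrX:51621604-51621673, plus strand: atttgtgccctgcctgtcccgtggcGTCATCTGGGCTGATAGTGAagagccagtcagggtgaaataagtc
Gm13157 peak in Gm14625, chrX:52605525-52605594, plus strand: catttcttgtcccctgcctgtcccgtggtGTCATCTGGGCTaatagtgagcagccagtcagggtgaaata

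The Zfp961 peaks in 3 intron-less copies of Rbm3 are shown with the Zfp961 peak in Rbm3 itself. The capitals mark TGGCGCCCA, the first 9 letters of the word TGGCGCCCAA found for Zfp961 outside pseudogenes. In the Zfp961 members with the full word, it lay a median of 1.00 bp from the summit. For the 9 letters this distance was not computed. In Gm13624 the summit lay at chr2:69637370, outside the printed bases, so the capitals are not a mapped binding site. Such letters are known from the primer binding site of retroviruses that use a lysine tRNA. To the right of the word the copies and Rbm3 part at about the annotated end of the Rbm3 exon.
Zfp961 peak in Gm10156, chr7:115006740-115006809, minus strand: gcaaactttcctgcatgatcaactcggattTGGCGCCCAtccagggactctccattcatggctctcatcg
Zfp961 peak in Gm15453, chr1:152112872-152112941, plus strand: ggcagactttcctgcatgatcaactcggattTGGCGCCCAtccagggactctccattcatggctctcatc
Zfp961 peak in Gm13624, chr2:69637412-69637481, plus strand: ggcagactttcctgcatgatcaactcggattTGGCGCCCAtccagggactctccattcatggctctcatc
Zfp961 peak in Rbm3, chrX:7721026-7721095, plus strand: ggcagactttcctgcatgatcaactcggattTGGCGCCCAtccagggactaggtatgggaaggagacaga

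The remaining windows belong to sequences with many genomic copies. Peaks of Gm21082, Gm14419 and Gm8898 lay side by side in Gm14957 on chromosome X and in Gm13377 on chromosome 2, and the capitals mark the stretch shared by most windows of each protein. The Gm14406 peaks in Gm6950 and RP23-138L1.1, a pair of alike pseudogenes on chromosome 12, are shown for the same reason.
Gm21082 peak in Gm14957, chrX:122750355-122750424, minus strand: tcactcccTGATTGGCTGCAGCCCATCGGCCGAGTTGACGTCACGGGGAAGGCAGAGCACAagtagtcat
Gm14419 peak in Gm14957, chrX:122750641-122750710, plus strand: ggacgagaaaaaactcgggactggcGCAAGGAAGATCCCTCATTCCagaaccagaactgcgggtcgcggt
Gm8898 peak in Gm14957, chrX:122752076-122752145, minus strand: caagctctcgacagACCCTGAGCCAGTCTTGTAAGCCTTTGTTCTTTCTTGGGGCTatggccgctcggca
Gm21082 peak in Gm13377, chr2:20996667-20996736, minus strand: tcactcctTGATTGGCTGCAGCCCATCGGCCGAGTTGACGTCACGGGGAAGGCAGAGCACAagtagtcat
Gm14419 peak in Gm13377, chr2:20996938-20997007, plus strand: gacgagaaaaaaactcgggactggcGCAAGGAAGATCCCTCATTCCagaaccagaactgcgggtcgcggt
Gm8898 peak in Gm13377, chr2:20998367-20998436, minus strand: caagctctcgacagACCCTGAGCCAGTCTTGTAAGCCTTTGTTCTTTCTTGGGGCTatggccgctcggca
Gm14406 peak in Gm6950, chr12:22699924-22699993, plus strand: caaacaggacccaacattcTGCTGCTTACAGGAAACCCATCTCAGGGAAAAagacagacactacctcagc
Gm14406 peak in RP23-138L1.1, chr12:22198187-22198256, minus strand: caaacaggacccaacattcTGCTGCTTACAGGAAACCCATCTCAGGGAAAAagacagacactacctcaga

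The members fell into 3 kinds of pseudogene that differed in where the peaks lay. Of the 4970 pseudogenes considered, 3813 were processed, 722 unprocessed and 435 without a class. The share of body bases by class was not computed, so the counts below are not rates of binding. In unprocessed pseudogenes 159 peaks were found, 61.6% of the members, and 152 of them lay outside exons, in 59 genes and with a median gene length of 25791 bp. Processed pseudogenes held 79 peaks, of which 44 lay in an exon, in 42 genes, and 35 outside exons, in 11 genes. Pseudogenes without a class held 20 peaks, 16 of them in exons and 11 within 1 kb of a coding start, with a median GC content of 71.5% for the 16 in exons. A typical pseudogene with a peak was long: the median body was 4545 bp with a peak and 634 bp over all 4970 pseudogenes. A longer body is more likely to hold a midpoint, so such a difference follows from the rule itself. Most pseudogenes with a peak, 94, had 1 peak, and 44 had more.

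Copy number was read as the median number of exact occurrences in mm9 of the 24-letter words of a window. It was at least 2 for 161 members (62.4%), against 41.7% of all peaks, and at least 100 for 79 members (30.6%), against 27.9% of all peaks. Most of the difference lay in windows with 2 to 99 copies, of which there were 82; it was not tested over single peaks. The other 97 members were single-copy. In the exons of processed pseudogenes 34 of 44 windows were single-copy. Outside the exons of unprocessed pseudogenes the median copy number was 33.5, and 67 windows had at least 100 copies.

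The peaks were unevenly spread over the chromosomes, as were the bases in pseudogene bodies. Chromosome X held 52 members (20.2%), against 4.68% of all peaks and 24.8% of the bases in pseudogene bodies. Chromosome 12 held 36, chromosome 7 and chromosome 5 held 35 each, and chromosomes 16 and Y held 0. Families of alike pseudogenes in 3 arrays carried 88 members (34.1%). The array on chromosome X at 51 to 53 Mb had 27 peaks of 6 KRAB-ZFPs in 6 pseudogenes, the array on chromosome 12 at 22 to 24 Mb had 34 peaks of 18 KRAB-ZFPs in 11 pseudogenes, and the array on chromosome 7 at 8 to 10 Mb had 27 peaks of 7 KRAB-ZFPs in 7 pseudogenes. Without the members in these arrays the share of peaks in pseudogenes was 0.321%.

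By KRAB-ZFP, Gm13152 had the most members with 31 of 5189 peaks (0.597%), followed by Gm14419 with 30 of 3906 (0.768%), Gm14406 with 25 of 5685 (0.440%) and Gm8898 with 19 of 1517 (1.25%). Next came Gm13157 and Zfp961 with 13 each, Zfp808 with 12, Gm13225 with 11, Gm21082 with 10 and Zkscan17 with 9. These 10 proteins held 67.1% of the members and 48.3% of all peaks. The order by share was different. Among KRAB-ZFPs with at least 100 peaks the highest share was that of Gm13157, 2.93% of 443 peaks (Wilson interval 1.72% to 4.96%), then that of Zfp808, 2.21% of 544 (1.27% to 3.82%), and both intervals lay above the pooled 0.487%. All 13 Gm13157 members and 9 of the 12 Zfp808 members lay in the 3 arrays, whose sites are copies of each other and not independent. Outside the arrays 0 Gm13157 members and 3 Zfp808 members were left. The latter were 0.551% of all 544 Zfp808 peaks, those in the arrays included. Gm14410 with 2 of 142 peaks (1.41%), Gm8898 and Gm13139 with 2 of 169 (1.18%) followed. The median KRAB-ZFP had 0.276% of its peaks in pseudogenes, with quartiles of 0% and 0.722%.

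**Figure D1:**
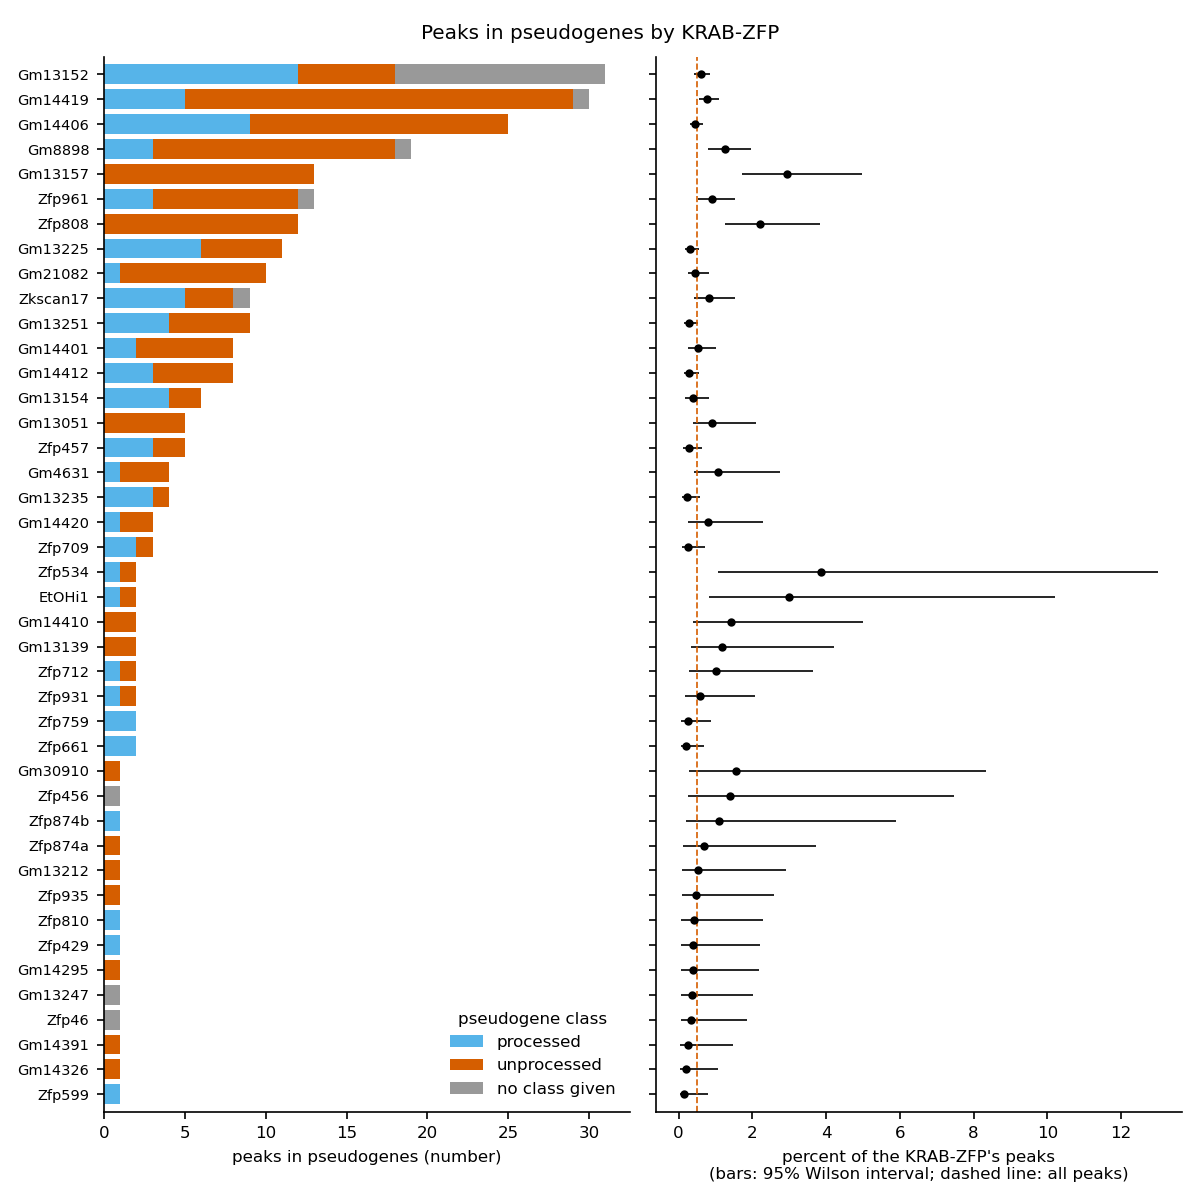
Number of peaks in pseudogenes (left) for each of the 42 KRAB-ZFPs with any, coloured by the class of the pseudogene, beside the share of the protein's peaks in percent with its 95% Wilson interval (right); the dashed line marks the share over all peaks. Gm13152, Gm14419 and Gm14406 have the most peaks, with 31, 30 and 25. Among proteins with at least 100 peaks, Gm13157 and Zfp808 have the highest shares, 2.93% and 2.21%. Zfp534 with 3.85% of 52 peaks and EtOHi1 with 2.99% of 67 lie higher.

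No member was found for 25 KRAB-ZFPs. Of these, 22 had at least 100 peaks: AW146154, Gm13145, Gm14393, Gm14399, Gm14418, Gm14436, Gm14443, Gm6710, LOC102638055, Zfp273, Zfp458, Zfp493, Zfp58, Zfp595, Zfp600, Zfp617, Zfp738, Zfp872, Zfp882, Zfp933, Zfp938 and Zfp953. The largest of these sets had 764 peaks, and 0 of 764 still allows a share of up to 0.50% by the Wilson interval. The pooled share of 0.487% thus lay within the interval of each of these sets.

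No difference in peak strength was detected between the members and other peaks of the same protein. Over the 16 KRAB-ZFPs with at least 5 members, the median log2 fold over background, as MACS gave it, averaged 4.69 in pseudogenes and 4.67 elsewhere, a difference of 0.02 with an SD of 0.17, higher in 9 and lower in 6 of the proteins (two-sided sign-flip permutation test, p = 0.705, adjusted p = 0.877 over 6 measures). The log10 peak score differed by -0.00609 (SD 0.0829), the log10 called width by 0.00147 (SD 0.0366) and the GC content by -0.0781 percentage points (SD 1.62), each with an adjusted p = 0.877 in the same permutation test. The permutation p-values measure the spread between KRAB-ZFPs, since each has 1 sample. Over single members the fold ran from 2.98 to 144.5 with a median of 24.3, and the median of the other peaks was 23.

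The share of windows with a copy number of at least 2 averaged 63.7% for the members and 51.5% for the other peaks of the same 16 proteins. It was higher in pseudogenes for 14 proteins and lower for Gm14406, with a difference of -7.05 percentage points, and Gm14412, with -30.8. Zfp961 had the widest gap, 76.9% against 26.9%, and Gm13154 had 50% against 11.1%. The mean difference of 12.2 percentage points (SD 18.2) had p = 0.0155 in the permutation test and an adjusted p = 0.0933, which did not pass the threshold of 0.05. Set against the other peaks that lay in genes of other types, the difference was 23.6 points (permutation test, adjusted p = 0.00144). Without the members in the long pseudogene Gm15710 it was 14.8 points (permutation test, adjusted p = 0.0237). With a copy number of at least 10 in place of 2 it was -0.786 points. Without the members of the 3 arrays it was 0.0490 points over 12 proteins (permutation test, adjusted p = 0.992). The arrays are stretches of alike copies, chosen after their values were seen, and only members were left out there. A smaller difference was thus built into that setting, which cannot show where the difference comes from.

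**Figure D2:**
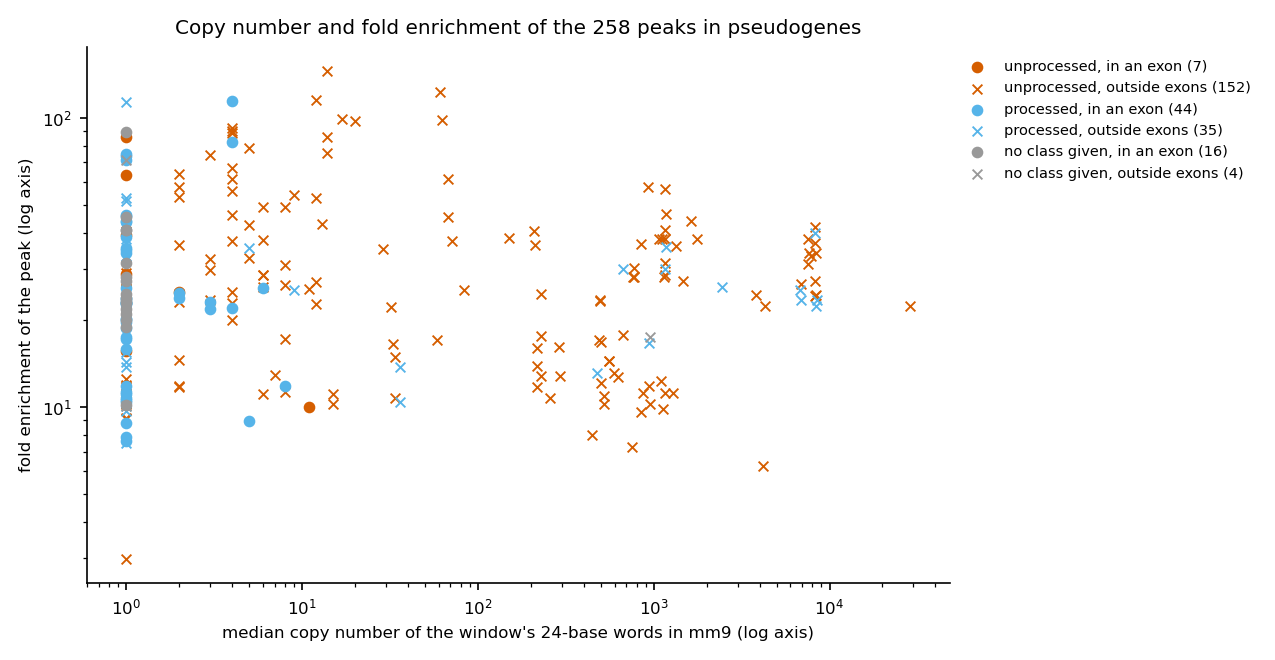
Fold over background (vertical log axis) against the median number of genomic copies of the window's 24-letter words (horizontal log axis) for the 258 peaks in pseudogenes, with colours for the class of the pseudogene, dots for peaks in an exon and crosses for peaks outside exons. The 44 peaks in exons of processed pseudogenes lie at low copy numbers, 34 of them at 1, while the 152 outside exons of unprocessed pseudogenes reach the highest copy numbers.

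The chromosome X array repeated a pair of binding sites. Its pseudogenes Gm7916, Gm6591, Gm16431 and Gm7974 were closest to 3830403N18Rik, and Gm16404 to Slxl1, an X-linked gene of a family known from the testis. Zfp808 bound 7 sites there, with a fold of 43.1 in Gm7916, 89.9 in Gm6591, 88.6 in Gm16431, 91.9 in Gm7974, 42.8 in Gm14625, and 25.6 and 67.04 in Gm16404, each with 125 to 453 tags. At 5 of the 7 sites a Gm13157 peak lay 752 to 1405 bp before the Zfp808 summit, with a fold of 42.7 to 55.8. At 4 sites another Gm13157 peak lay 13056 to 13308 bp after it, with a fold of 75.5 to 144.5. In Gm16404 a further Gm13157 peak lay 4551 bp after the weaker Zfp808 peak, with a fold of 32.8. All Gm13157 folds of the distal position were thus above all those of the proximal position, and 144.5 was the highest fold of any member. The windows of Gm13157 were 86.6% to 100% identical to another of the family and the Zfp808 and Gm13157 windows had 1 to 17 copies.

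Other proteins shared this layout at fewer sites. Zfp961 bound 8712 and 8936 bp after the Zfp808 summit at 2 sites, in Gm7916 and Gm7974, with a fold of 28.5 and 25.9, which put it 4344 and 4345 bp before the distal Gm13157 peak. In Gm14625, where no Gm13157 peak lay at that distance from Zfp808, a Zfp961 peak with a fold of 28.5 lay 4339 bp from a Gm13157 peak with a fold of 114.9. In Gm16404 the nearest were 26510 bp apart. Zkscan17 bound within 3 and 10 bp of Zfp808 at 2 sites, in Gm16431 and Gm7974, at a fold of 20.0 and 22.9 from 9 and 8 tags. The same pair of proteins met outside the X chromosome as well: RP23-71I22.5 on chromosome 12 held Gm13157 peaks with a fold of 78.8 and 122.9 and a Zfp808 peak with 53.8. A Zfp808 peak lay within 3 kb of 6 of the 13 Gm13157 members (46.2%, Wilson interval 23.2% to 70.9%), against 15.1% (12% to 18.8%) of the Gm13157 peaks elsewhere. The array sites are copies of each other and so are not independent.

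**Figure D3:**
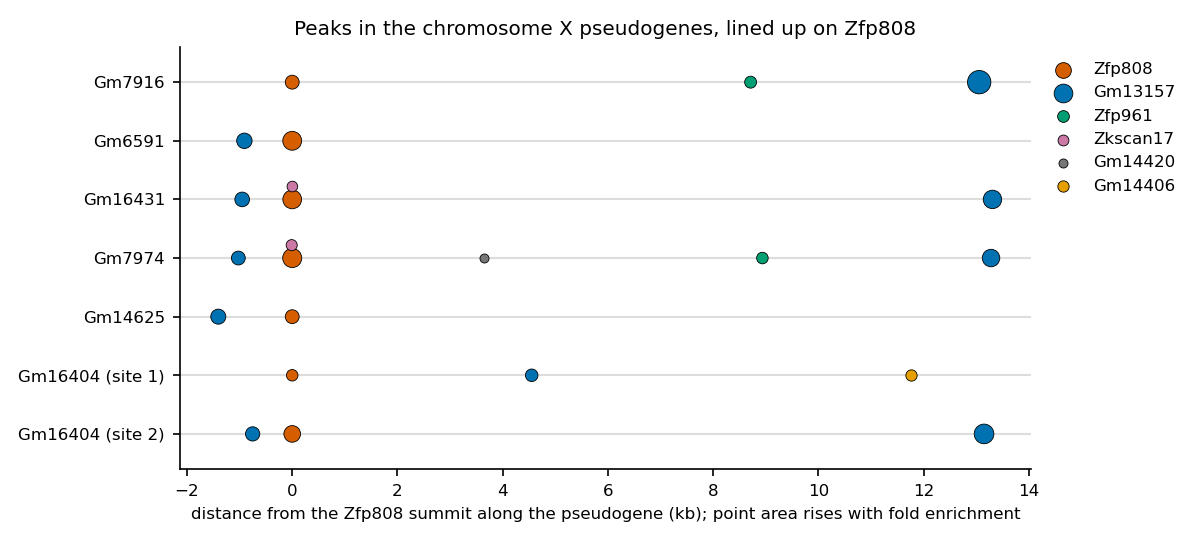
Peaks in the pseudogenes of the chromosome X array by distance in kb from the Zfp808 summit (horizontal axis), with 1 row for each of the 7 Zfp808 sites, colours for the KRAB-ZFP and a point area that rises with the fold over background. Gm13157 lies before Zfp808 at 5 sites and over 12 kb after it at 4.

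The word GGTGCACCAA was taken from single-copy Zfp808 windows outside pseudogenes, where 44% of 100 held it on either strand. It was present in 11 of the 12 Zfp808 members (91.7%), a median of 19 bp from the summit, and in 2 of the 246 other members. Only 1 Zfp808 member was single-copy, and it held the word. Among single-copy windows of the other KRAB-ZFPs outside pseudogenes 0.0423% held it. In the Gm13157 members the stretch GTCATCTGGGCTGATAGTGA was present in 10 of 12 alike windows, in 25.3% of the Gm13157 windows elsewhere and in 0% of those of other proteins; this stretch was taken from the members themselves. A word match is a description of the window and not a mapped site.

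On chromosome 12, 11 pseudogenes closest to Asap2, a GTPase-activating protein of the ARF family, held 34 members of 18 KRAB-ZFPs. In pairs of these pseudogenes, peaks of the same proteins were called at like distances from the gene start. In RP23-138L1.1 and Gm6950, Zfp961 bound at 10755 and 10742 bp with a fold of 29.8 and 32.4, and again at 33146 and 32891 bp with 37.6 and 49.2. Gm14406 bound at 14358 and 14371 bp with a fold of 34.0 and 36.9, and Gm13051 at 35907 and 35614 bp with 61.6 and 74.6. All 4 shared sites had the higher fold in Gm6950. Both pairs of Zfp961 windows were 100% identical where aligned, and the Zfp961 and Gm13051 windows had 3 to 8 copies. Where reads are identical they were placed pseudo-randomly. Peaks in both bodies then cannot be told from binding in 1 of them, and their folds cannot be ranked. Peaks of Gm13251 and Zkscan17 were called only in RP23-138L1.1, and those of Zfp808, Gm30910 and Gm13154 only in Gm6950; whether these differences exceed chance calling was not tested.

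Further pairs of this array matched in part. In Gm11055 and Gm10476, Gm14419 bound at 89531 and 89607 bp with a fold of 38.3 and 37.4, and Gm8898 at 90530 and 90704 bp with 16.1 and 7.98. In RP23-71I22.3 and RP23-32K16.2, Gm14410 bound at 2853 and 2914 bp with a fold of 16.4 and 14.9, and these 2 peaks were all of its members. In RP23-71I22.4 and RP23-32K16.3, Gm14406 bound at 20192 and 19987 bp with a fold of 22.36 and 24.3. Unmatched peaks were those of Zfp874a and Gm13251 in Gm11055, of Zfp935 in RP23-32K16.2 and of Gm13152 in RP23-71I22.4. Gm4109, of the same family, had 4 peaks of 4 KRAB-ZFPs.

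**Figure D4:**
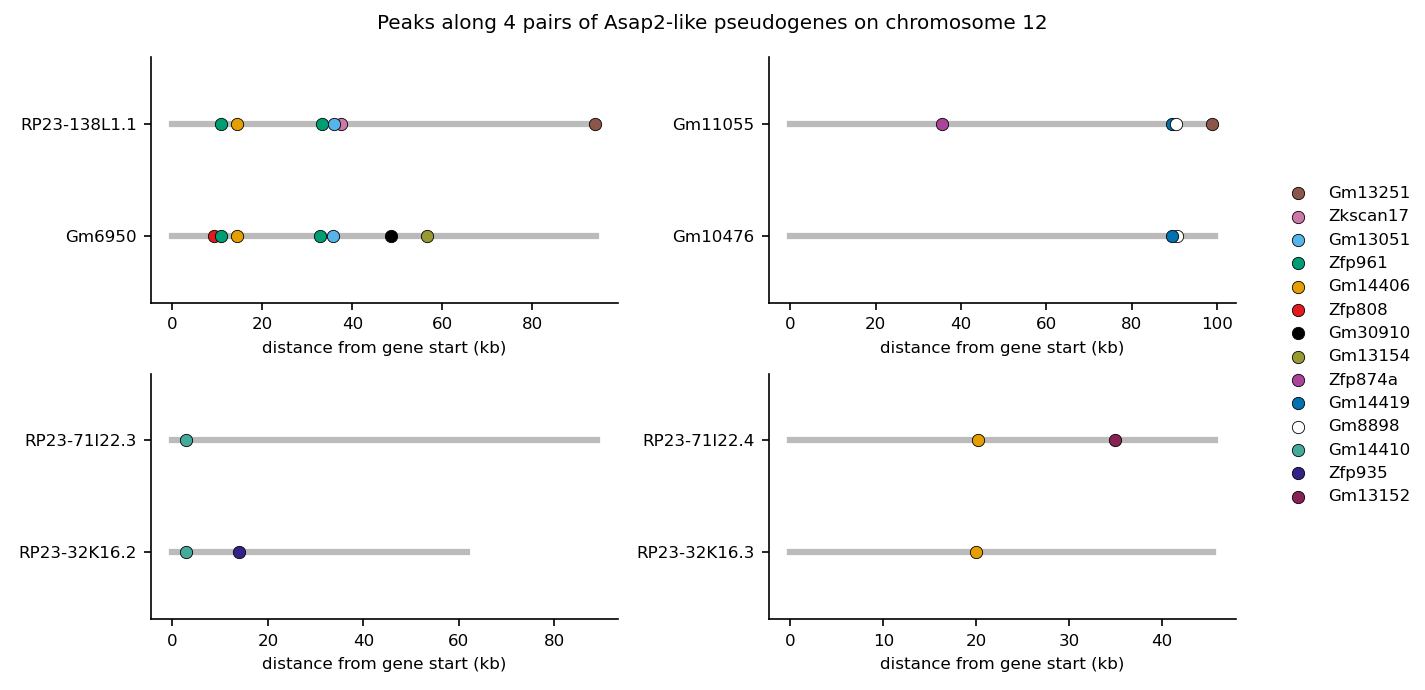
Peaks in 4 pairs of pseudogenes of the chromosome 12 array by distance in kb from the gene start (horizontal axis), with 1 grey bar for each pseudogene body and 1 colour for each KRAB-ZFP. The Zfp961, Gm14406 and Gm13051 peaks of RP23-138L1.1 and Gm6950 line up, while peaks of 5 other proteins are in 1 pseudogene of the pair only.

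Gm8898 and Gm14419, both assayed in ES cells, shared most of their pseudogenes. A Gm14419 peak lay within 3 kb of 18 of the 19 Gm8898 members (94.7%, Wilson interval 75.4% to 99.1%), and of 83.0% (81.1% to 84.9%) of the Gm8898 peaks elsewhere, so the pairing was not particular to pseudogenes. At the 17 sites, with the farther of the Gm8898 peaks taken in Gm3962, the summits were 999 to 1526 bp apart with a median of 1440 bp, and 15 sites lay within 1300 to 1600 bp. The fold of Gm14419 ran from 9.62 to 56.6 and that of Gm8898 from 7.98 to 23.3, with Gm14419 higher at 14 of the 17 sites. Gm21082, assayed in F9 EC cells, bound at 5 sites on the other side of the Gm14419 summit, 267 to 339 bp away, and at 6 sites 5961 to 6457 bp beyond it on the side of Gm8898. The order Gm21082, Gm14419, Gm8898, Gm21082 was complete in Gm13377, Gm3972 and Gm14957. Some of the partner peaks lay outside the body of the pseudogene.

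**Figure D5:**
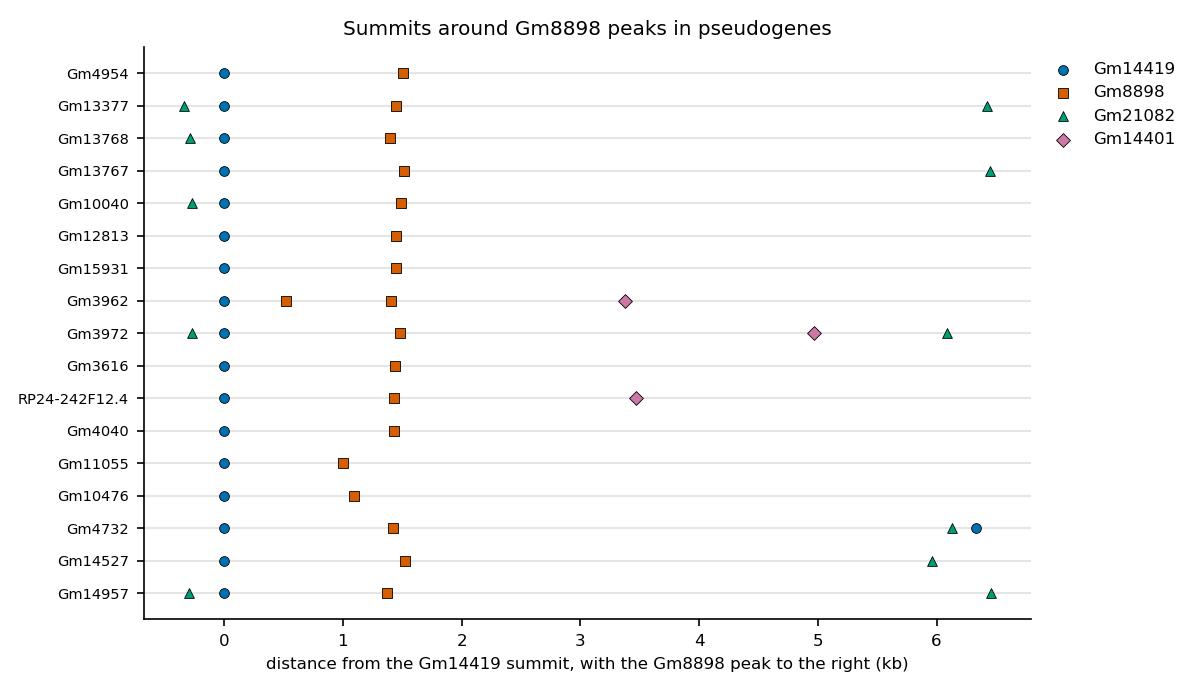
Gm8898, Gm21082 and Gm14401 peaks by distance in kb from the Gm14419 summit (horizontal axis) at the 17 sites that Gm8898 and Gm14419 share, 1 row for each pseudogene, oriented so that Gm8898 lies to the right. Gm8898 lies 999 to 1526 bp away, with a second peak nearer in Gm3962, and Gm21082 lies 267 to 339 bp to the left at 5 sites and 5961 to 6457 bp to the right at 6.

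The windows of these proteins were near-identical to each other across pseudogenes of unlike origin. With an identity of at least 80% over at least 150 bp, 22 Gm14419 windows in 17 pseudogenes formed 1 family, as did 21 Gm14406 windows in 18 pseudogenes, 16 Gm8898 windows in 16 and 10 Gm21082 windows in 7. In all, 121 members (46.9%) belonged to 18 such families of 14 KRAB-ZFPs. The 42-letter stretch printed in capitals for Gm8898 was in 13 of its 16 alike windows and in 53.7% of the Gm8898 windows elsewhere, against 0.0330% for other proteins. For Gm21082 the 53-letter stretch was in 8 of 10, in 74.1% elsewhere and in 0.0709% of other proteins' windows. For Gm14419 the 21-letter stretch was in 18 of 22, in 43.9% and in 0.128%, and for Gm14406 the 32-letter stretch was in 17 of 21, in 66.9% and in 0.00845%. The stretches were taken from the members, so how often the members hold them is set by that choice. No repeat annotation was used here.

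Peaks in exons of processed pseudogenes were of another kind. For 43 of the 44 a parent gene was found, and 35 windows aligned to the parent transcript over at least 150 bp with an identity of 75.7% to 99.5%, all of them including coding sequence. In 29 of the 35 the window crossed a join of parent exons, a sequence that is interrupted by an intron in the parent gene. For 11 of the 44 the same KRAB-ZFP also had a peak in the parent gene. Reads from identical stretches of a copy and its parent cannot be told apart, and their part in these matches was not tested.

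Zfp961 showed the strongest such set, in copies of Rbm3, an RNA-binding protein induced by cold. The fold was 98.5 in Rbm3 itself (197 tags), 114.0 in Gm10156 (179 tags), 89.4 in Gm13624 (249 tags) and 82.6 in Gm15453 (148 tags), so gene and copies lay close together. The windows of Gm10156 and Gm15453 matched the Rbm3 transcript at 98.0% and 98.5%. The peak in Rbm3 lay in an exon at chrX:7720979-7721178, and 97 bp of it aligned to the copies at 99% to 100%. No other KRAB-ZFP had a peak in these 3 copies. The 9-letter start of the Zfp961 word, printed above in capitals, was in 6 of the 13 Zfp961 members. It was in 27.2% of the Zfp961 windows elsewhere and in 0.0698% of the windows of other KRAB-ZFPs. The word was cut to these letters because the Rbm3 copies hold them. The 3 copies are among the 6, so that count is partly set by the choice. The full 10-letter word was in 3 of the 13 members and in 2 of the 3 single-copy ones, against 15.3% of the single-copy windows elsewhere. Zfp961 also had a fold of 73.9 in Gm4835 and of 29.3 in its parent Morf4l1, a chromatin protein, over an aligned 121 bp at 95.9%.

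For Gm13152 the peak in the copy was above that in the parent at 3 of 4 pairs. The fold was 71.6 in Gm13015 and 55.4 in Polr2l, a small subunit of RNA polymerase, 46.2 in Gm15173 and 24.5 in Ppp1r14b, an inhibitor of a protein phosphatase, and 34.1 in E130201H02Rik and 22.7 in Gm11560 against 25.2 in Ybx1, a nucleic acid-binding protein of the cold-shock domain type. For 3 other proteins the parent had the higher value. Zfp810 had a fold of 21.99 in Gm16379 and 48.3 in Mif, a cytokine, and Gm14419 had 17.5 in Gm11779 and 40.4 in Zcchc3. Gm13154 had 23.5 in Gm8802 and 124.1 in Lin37, a member of the DREAM complex, where only 34 bp aligned.

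Copies were also bound with no peak called in the parent. Gm13154 bound Tcea1-ps1 and Gm15223, a pair 96.3% identical over the window and both derived from the elongation factor gene Tcea1, with a fold of 24.7 and 45.7, and no Gm13154 peak lay in Tcea1. Zfp534 bound Gm12003, a copy of the cytoplasmic actin gene Actg1, with a fold of 75.01. By parent group, copies of ribosomal protein genes held 24 members in 6 pseudogenes. Of these, 19 lay in Gm15710 alone, all outside its exons and so outside the sequence that matches Rpl13. Among the others were Rpsa-ps4 with a Zfp759 fold of 21.86 and Gm10548, whose peak also lay outside exons. These are grouped by the closest coding transcript, which leaves out Rpl12-ps2 with a Gm13152 fold of 43.6 and Rpl21-ps9 with a Zkscan17 fold of 18.8. By symbol, 3 of the 107 ribosomal protein pseudogenes considered held a peak (2.80%), where 2.78% of all pseudogenes did. Copies of heat shock and chaperone genes held 2 members, outside the exons of Gm13437 (Hspa8) and in an exon of Gm15394 (Dnajc10). Copies of nuclear protein genes held 2, in exons of Gm12260 (a histone H3 gene) and Gm15484 (Npm1). The housekeeping group held 1, in Gm12003, and zinc finger genes held 1, a Gm14420 peak in Gm13230 with a fold of 2.98, the lowest of all members. Gm13230 was closest to Gm13152, itself a KRAB-ZFP of the series.

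Gm13152 stood apart from the repeat-binding proteins in its members. Of its 31 peaks 26 were single-copy, 10 lay within 1 kb of a coding start and the median GC content was 66.5%, where its other peaks had 64.0%. A copy number of at least 2 was found for 16.1% of these members and 13.8% of its other 5158 peaks. Low copy number was thus not particular to its members. The share of its other peaks near a coding start was not computed. The folds of the members ran from 20.0 to 113.2. The highest was outside the exons of Gm10548, a processed copy of a ribosomal protein gene that overlaps Apc, and 77 bp from a coding start. The next was in Gm12260, inside Trim17, with 85.4. Its word CCAGAGGGTC was in 6 of 31 members (19.4%), and in 3 of the 26 that were single-copy. Outside pseudogenes it was in 11.4% of the single-copy Gm13152 windows and in 0.0493% of the single-copy windows of other proteins. Over all members 16 (6.20%) lay within 1 kb of a coding start, against 9.86% of all peaks. A gene other than a pseudogene also covered 43 of the 258 members, a protein-coding one in 38. Of all 53011 peaks, 21532 lay in such other genes and in none of these pseudogenes. The share of all peaks in protein-coding genes was not computed.

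Gm15710 held the most peaks of any pseudogene. Its body spans 868955 bp, at chr5:91701001-92569955 on the minus strand, although its spliced sequence of 636 bp is 99.8% identical to Rpl13, and it makes up 8.25% of all bases in pseudogene bodies. It held 19 peaks of 11 KRAB-ZFPs, 15 of them single-copy and 0 in an exon. The highest single-copy ones were those of Gm14412, with a fold of 52.8 and 51.7. These peaks lie in a pseudogene only by its annotated extent. On chromosome 7, Gm3616, of the Vmn2r35 family and 361137 bp long, held 14 peaks of 6 KRAB-ZFPs, 5 of them in a smaller pseudogene nested in it, and Gm3962 and Gm3972, both closest to Vmn2r29, held 6 and 5 peaks of 4 KRAB-ZFPs each.

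Several other pseudogenes were bound by at least 3 KRAB-ZFPs. On chromosome X, Gm16404 held 8 peaks of 4 proteins, Gm7974 6 of 5, Gm7421 5 of 5, of which 3 lay in the nested Gm14527, and Gm14957 5 of 4. On chromosome 12, Gm6950 held 7 peaks of 6 proteins and RP23-138L1.1 6 of 5, with Gm11055 and Gm4109 at 4 of 4. Gm8091 also had 4 peaks of 4 proteins. Gm12057, Gm13377, Gm14625, Gm16431, Gm4732, RP23-71I22.5 and RP24-242F12.4 had 4 peaks of 3 proteins each, and Alms1-ps1, Gm13767, Gm13768, Gm14527 and Gm7916 had 3 of 3. In all, 25 of the 138 pseudogenes had at least 3 KRAB-ZFPs, or 24 of 137 with a nested peak counted in the smaller body alone.

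Different KRAB-ZFPs seldom bound the same place. Windows of 2 KRAB-ZFPs overlapped by at least 25% for 18 members (6.98%), against 13.8% of all peaks. Over the 16 proteins the mean share was 5.23% for members and 9.14% for other peaks. The difference of -3.91 percentage points (SD 11.2) did not pass (permutation test, p = 0.192, adjusted p = 0.575). The share was lower for the members in 13 proteins and higher in 3. A protein without a shared member counts as lower even where few of its other peaks are shared. That count thus partly follows from small numbers of members. The 9 shared loci had 2 KRAB-ZFPs each. Zfp808 and Gm13139 met in Alms1-ps1 with a fold of 63.7 and 57.4, 87 bp apart, and in Gm8289 with 53.2 and 27, and these were the only members of Gm13139. Gm13152 and Gm14412 met in Gm15385 with 29.1 and 27.4, and Zfp712 and Gm13225 in Gm13993 with 21.7 and 10.2. In Gm8091 the peaks of Gm14326 and Gm14391 were 1 bp apart with a fold of 12.5 and 11.8, and both had a deposited false discovery rate of 100%.

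Quality varied between proteins. The deposited false discovery rate was over 5% for 32 members, among them all 8 of Gm14401, and tags per member ran from 7 to 573 with a median of 44. With a score over 100 and a fold over 20 for all, 168 members were left. The 11 members of Gm13225 had low folds, 10.2 to 15.4, and 0 of them belonged to a family of alike windows. The 9 members of Zkscan17 rested on 7 to 16 tags each.

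The share of peaks in pseudogenes did not separate the kinds of sample. It averaged 0.766% (SD 1.04, n = 18) for FLAG-tagged and 0.352% (SD 0.541, n = 30) for HA-tagged proteins in F9 EC cells called against the HA control, a difference of 0.414 points (two-sided permutation test, p = 0.0898, adjusted p = 0.180 over 2 comparisons). It averaged 0.516% (SD 0.807, n = 58) for all F9 EC samples and 0.597% (SD 0.431, n = 9) for ES samples (difference -0.0809 points, permutation test, p = 0.703, adjusted p = 0.703). Each group holds other proteins, so tag, cell line and protein cannot be told apart.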

How the data were processed

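The members and lists were chosen with earlier results of these data known. Per the labels and methods, the authors mapped ChIP-seq reads to mm9 with Bowtie or Bowtie2, placed reads with several equal positions pseudo-randomly, called peaks per sample with MACS 1.4.2 against input and control ChIPs, and set each to 200 bp around its summit. The deposited table gives each peak's tags as a count, a score (10 times the negative log10 of the p-value), the fold enrichment (a ratio) and a false discovery rate in percent, all the authors' values.

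Peaks were placed in gencode vM1 genes on NCBIM37, the assembly of mm9. The 10 peaks in 2 nested pseudogenes were counted in both bodies where peaks are given per pseudogene, and otherwise in the smaller body. Copy number was the median count in mm9 of the window's 24-letter words. Parent genes were the best blastn match (BLAST 2.17.0, e-value up to 1e-10, at least 100 bases, same strand) of the spliced pseudogene among protein-coding transcripts. Words of 10 letters were those most in excess in a protein's single-copy windows outside pseudogenes over such windows of other proteins. Stretches were the longest shared by at least 80% of an alike family. The arrays, partner pairs and families were chosen after their values were seen.

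Differences between members and other peaks were tested over KRAB-ZFPs with at least 5 members, by flipping signs, and groups of samples by permuting labels, with 100000 resamples and Benjamini-Hochberg adjustment over 6 and 2 tests in Python 3.11.15 (scipy 1.17.1). The tests were checked on simulated data. Named were the 10 KRAB-ZFPs with the most members, the 5 with the highest share and those without any among sets of at least 100 peaks, the 12 pseudogenes with the most peaks and all with at least 3 KRAB-ZFPs, the highest single-copy folds, and fixed parent groups. Other members were named as examples after their values were seen. One labelled KRAB-ZFP had no peaks under its name and was not analysed here, and 1 pair of copy and parent is not reported here.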

Additional observations from a re-analysis of the deposited data

Results flagged for a closer look

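EtOHi1 had 2.99% of its peaks in pseudogenes, the highest of the 10 HA-tagged proteins in F9 EC cells called against the Gm14296 control, and the next was 1.41%. The gap was 0.528 of the group's range, above Dixon's 95% critical value for 10 samples. The value rests on 2 of 67 peaks, in Gm14856 and Gm4109, with a Wilson interval of 0.822% to 10.2%. For normal values of equal precision such a gap is found by chance in about 1 of 20 groups, and 2 groups were tested. In this group 4 of the 10 shares were 0, and the sets ran from 67 to 5685 peaks. That rate thus does not hold here.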

How the results depend on the processing

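No paired analysis was possible because each KRAB-ZFP had 1 sample, so that replicate numbers tie no samples together; the pairs in the tests above are sets of peaks of the same sample. The deposited summit is the midpoint of the window, so placing peaks by summit was not run apart. The 14 alternatives for shared loci (-7.57 to -1.44 points) and the 9 for FLAG against HA (0.184 to 0.432 points) kept their direction and stayed on their side of the threshold. Of these alternatives, leaving out the members of the 3 arrays, leaving out Gm15710 and adding the HA samples of the Gm14296 control were chosen after seeing the data.

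The share of peaks in pseudogenes moved to 0.126% with exons alone and 0.321% without the arrays. The difference in multi-copy share was -0.786 points at a copy number of at least 10 and -0.165 at 100, and it passed with Olfr and Vmn pseudogenes kept in (16.7 points, adjusted p = 0.0175), against peaks in genes of other types (23.6, 0.00144), with at least 3 members (13.1, 0.0247) and without Gm15710 (14.8, 0.0237), while without the members of the 3 arrays it was 0.0490 points (0.992, 12 KRAB-ZFPs), all by the permutation test named above; the adjusted p ran from 0.00144 to 1.00 over its alternatives. Leaving out the array members, which lie in alike copies, was bound to lower the multi-copy share of the members. Differences that did not pass changed sign as follows. GC content was 0.364 points at the strict cut-offs, 0.0833 with at least 10 members and 0.312 without the arrays. Log10 width was -0.00416 with at least 10 members and -7.45e-04 with exons alone, where log2 fold was -0.21 from 2 KRAB-ZFPs. Log10 score was 0.0355 against peaks in genes of other types, 6.42e-04 with at least 3 members and 0.0653 without the arrays. F9 EC against ES was 0.396 points at the strict cut-offs and 0.0945 with exons alone. The cause was not tested. Since library depth is unknown, absence of a call says nothing about binding there, and random placement can move peaks between identical copies.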
